A study of Homo sapiens with 4 samples.

Results

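The histone lysine methylation and deacetylation enzymes were followed across RNA sequencing of cells labelled HepG2 (an established human hepatoma line) in which a short hairpin RNA was directed at STAT3 (the STAT3 shRNA group) or served as a control (the Ctrl shRNA group), with 2 libraries per group. Genes were chosen by their symbols (the KDM, KMT2, KMT5, HDAC, SIRT, SETD and NSD series, SUV39H1, SUV39H2, EHMT1, EHMT2 and the PRC2 genes EZH1, EZH2, EED and SUZ12), which gave 63 of the 27452 genes in the tables. The question was what a lower level of STAT3, a transcription factor downstream of cytokine and growth factor receptors, does to the expression of other genes. Both groups were grown in serum-supplemented DMEM, and the hairpins were introduced to make knockdown and control lines. The labels give neither the hairpin sequences nor the number of clones, and separate cultures are not stated for libraries of the same group, so the p-values measure only the spread between these libraries.

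Methyl groups on histone lysines are written by SET-domain methyltransferases and erased by LSD-type (amine oxidase) and Jumonji C (JmjC) demethylases. Methylation of H3K4 marks promoters and enhancers in use and that of H3K36 marks transcribed gene bodies, while H3K9 and H3K27 methylation mark repressed chromatin. Acetyl groups are removed by the zinc-dependent histone deacetylases (HDACs) of classes I, IIa, IIb and IV and by the NAD-dependent sirtuins, some of which act mainly on proteins outside the nucleus.

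STAT3 itself stood at 34.7 and 36.1 CPM (read counts relative to library size, scaled for composition) in the STAT3 shRNA libraries, against 245 and 244 CPM in the Ctrl shRNA libraries, a log2 fold change of -2.79 ± 0.09 (SE; edgeR quasi-likelihood test, Benjamini-Hochberg adjusted p = 3.28e-07). The libraries held 17694642 to 25862027 counts in STAT3 shRNA and 19283150 to 20133064 in Ctrl shRNA, and 3 reads in 1 library corresponded to 0.113 to 0.163 CPM. The label HepG2 was not borne out by hepatocyte markers: ALB had 0 and 3 reads in STAT3 shRNA and 0 in each Ctrl shRNA library, APOA1 had 1 and 2 reads against 0 and 0, and AHSG had 11 and 5 reads against 0 and 0. Of 10 hepatocyte markers listed, only 5 were found in the tables used here. The summed level of these 5 was 5.92 to 8.55 CPM in STAT3 shRNA and 3.29 to 3.92 CPM in Ctrl shRNA, with 3 of the 5 at 0 in a group. HNF4A made up most of that sum in STAT3 shRNA, at 7.20 and 4.95 CPM, against 1.27 and 1.78 CPM in Ctrl shRNA (log2 fold change 1.997, adjusted p = 0.00131). In Ctrl shRNA TF was the larger part, at 2.015 and 2.14 CPM, against 0.900 and 0.435 CPM in STAT3 shRNA (-1.59, adjusted p = 0.0236). Summed fibroblast markers (7 genes, none at 0 in a group) were 42.6 to 45.3 CPM against 56.7 to 66.3 CPM, with COL1A1 lower (-1.47, adjusted p = 5e-05) but DCN and ACTA2 higher (0.46 and 1.08, adjusted p = 0.0329 and 0.0132). Endothelial markers (3 genes, 1 at 0 in a group) summed to 1.16 to 1.74 CPM against 1.2025 to 1.75 CPM, and leukocyte markers (3 genes, nearly all of it CD68) 24.2 to 27.9 CPM against 10.7 to 15.2 CPM. The part of these differences in the results on the enzymes was not tested, and in bulk RNA fewer cells of a type and less RNA per cell cannot be told apart.

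Of the 63 enzymes, which were all tested, 19 passed an adjusted p of 0.05. That is 30.2% of them, where 35.5% of all 15199 tested genes passed. In STAT3 shRNA 10 were higher, against a background of 16.8% of all genes, and 9 were lower, against 18.7%, so the share of enzymes called lay near or under that of all genes. Their median log2 fold change was -0.02, beside 0.02 for all tested genes. The libraries of the 2 groups did not overlap in CPM for 46 enzymes (73.0%), a property that 70.8% of all tested genes shared. Changes of 2-fold or more that also passed the threshold were found for HDAC9 and HDAC4, 3.17% of the enzymes, against 8.64% of all tested genes. Most of the other enzymes lay close to no change, since 37 of the 44 that did not pass had a log2 fold change under 0.25 in size. Calls without 1 of the libraries are given below with their fold changes. Leaving out a STAT3 shRNA library leaves 1 in that group, which is then assumed to vary like the Ctrl shRNA pair, and over all genes 1128 to 1147 were then higher and 1399 to 1420 lower, against 2552 and 2844 with all libraries. A call lost there therefore does not by itself show that the change was smaller. It was smaller for some enzymes and as large or larger for others, as the fold changes below show. Together the enzymes held 4439 and 4298 CPM in STAT3 shRNA and 4352 and 4261 CPM in Ctrl shRNA.

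**Figure D1:**
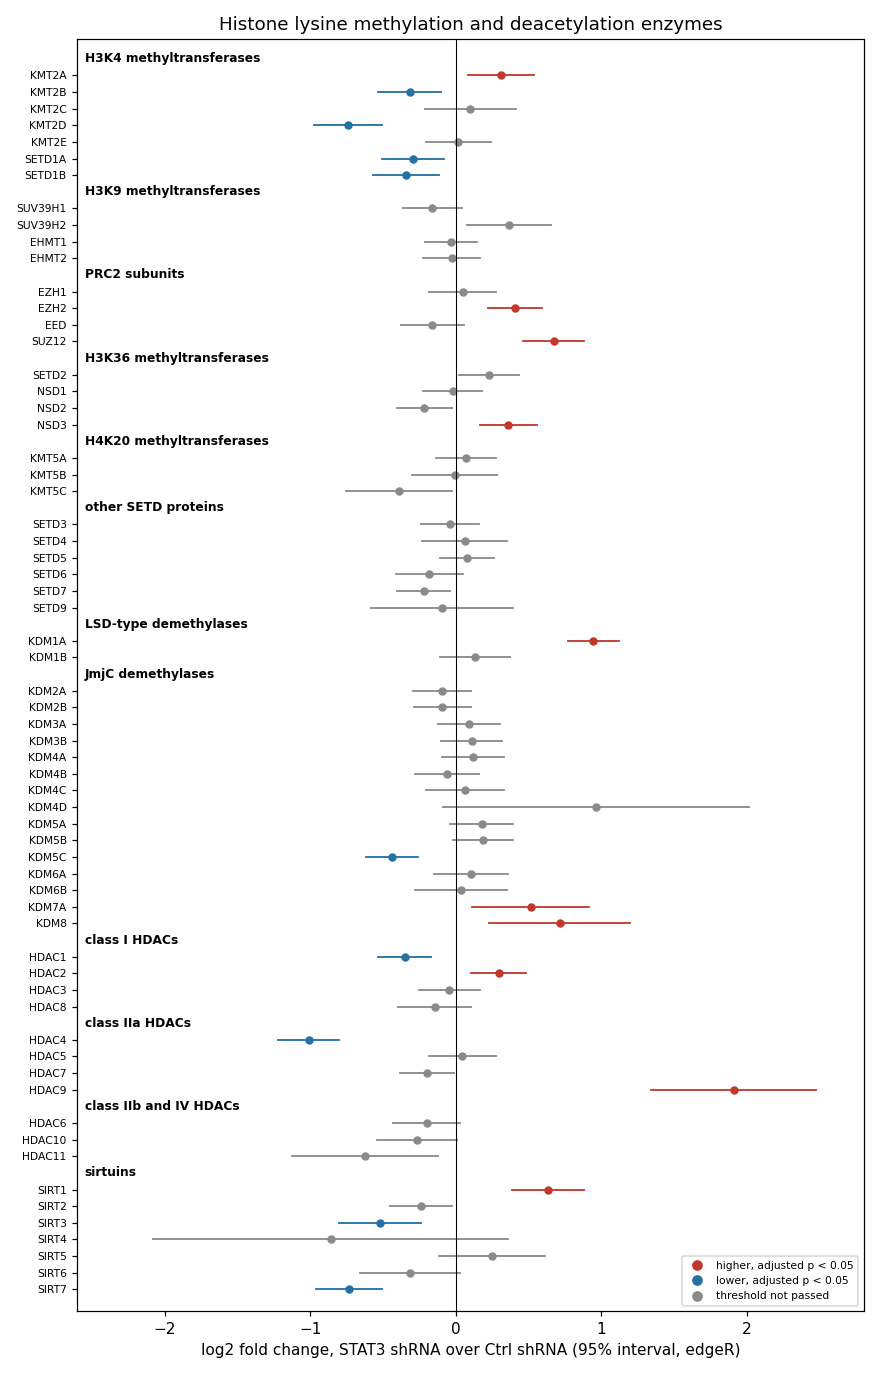
Log2 fold change (STAT3 shRNA over Ctrl shRNA, x axis) of each of the 63 enzymes, grouped by role, with 95% intervals from the edgeR test of 2 against 2 libraries. Red points (10) were higher and blue points (9) lower at an adjusted p of 0.05, and most grey points lie within 0.25 of zero, with HDAC9 at 1.91 and HDAC4 at -1.01 at the ends of the called ones.

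Most of the enzymes had appreciable levels per transcript length. On the deposited FPKM scale (fragments relative to transcript length and library size) the mean over all libraries ranged between 0.465 for KDM4D, an H3K9 demethylase, and 125.2 for KDM1A, with a median of 15.7. There were 47 enzymes above 10 FPKM, and the 3 under 1 FPKM were KDM4D, KDM7A and the mitochondrial sirtuin SIRT4. The same 4 genes led in both groups, in another order. In STAT3 shRNA the group means were 168.5 FPKM for KDM1A, 99.1 for HDAC2, 75.8 for HDAC1 and 59.5 for KDM5C. In Ctrl shRNA they were 93.3 FPKM for HDAC1, 86.9 for HDAC2, 86.6 for KDM5C and 82.0 for KDM1A.

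**Figure D2:**
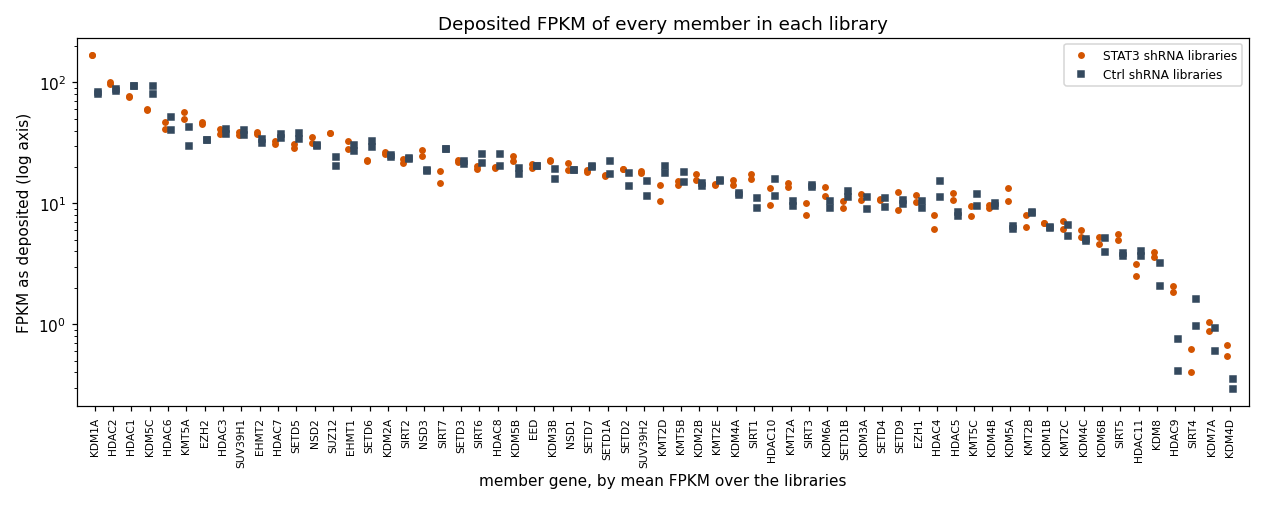
Deposited FPKM (log axis) of each of the 63 enzymes in every library, ordered by the mean over libraries; circles are STAT3 shRNA and squares Ctrl shRNA libraries, 2 each. Levels span 0.465 to 125.2 FPKM on average, with KDM1A at the top in STAT3 shRNA (mean 168.5 FPKM) and HDAC1 at the top in Ctrl shRNA (93.3 FPKM).

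Because STAT3 was the targeted gene, start-site windows of the enzymes (250 bases before to 50 after each start, RefSeq, GRCh38.p14) were searched for the palindrome that STAT dimers bind, TTCNNNGAA, which reads alike on both strands. Windows were found for 59 of the 63 enzymes, and the palindrome was in those of EED, HDAC4 and HDAC8, 3 of 90 windows. It was in 7.66% of all 35116 windows. The stretches holding it are shown with the palindrome in capitals, each 5′ to 3′ on the gene's own strand: HDAC4 from chr2:239267515-239267550, minus strand, EED from chr11:86244574-86244661, plus strand, and HDAC8 from chrX:72572956-72573016, minus strand.
HDAC4: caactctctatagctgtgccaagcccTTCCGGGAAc
EED: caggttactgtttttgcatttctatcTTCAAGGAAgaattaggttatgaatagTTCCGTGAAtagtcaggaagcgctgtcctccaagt
HDAC8: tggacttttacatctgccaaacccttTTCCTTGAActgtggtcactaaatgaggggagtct
In HDAC4 the palindrome began 10 bases before 1 of its 5 listed starts, in HDAC8 147 bases before its start, and in EED it occurred at 2 places, beginning 153 and 126 bases before the start. Of these 3 genes HDAC4 passed the threshold in the comparison, while EED and HDAC8 did not. A match describes the letters of these windows and is no evidence of binding.

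Among the 7 H3K4 methyltransferases 4 were lower in STAT3 shRNA, 1 was higher and 2 did not pass. Over all tested genes 16.8% were higher and 18.7% lower, the background for this and the following counts by role. KMT2D, which places monomethylation at enhancers, had 112 and 91.6 CPM in STAT3 shRNA, against 170.5 and 169.7 CPM in Ctrl shRNA. Its log2 fold change was -0.74 ± 0.10 (SE; edgeR, adjusted p = 0.000941). Both STAT3 shRNA libraries lay well below the tightly spaced control pair, although they differed more from each other.

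Its close paralog KMT2C stood at 65.4 and 63.8 CPM in STAT3 shRNA and 70.0 and 50.6 CPM in Ctrl shRNA, with overlapping groups and a log2 fold change of 0.10 (adjusted p = 0.612). KMT2A and KMT2B, the menin-bound enzymes of promoters, gave opposite signs. KMT2A had 128 and 107.5 CPM in STAT3 shRNA, against 93.9 and 96.5 CPM in Ctrl shRNA (log2 fold change 0.31, adjusted p = 0.0407), whereas KMT2B had 53.5 and 47.2 CPM, against 62.6 and 62.9 CPM (-0.32, adjusted p = 0.0314). The SET1 enzymes, which carry out most H3K4 trimethylation, were both lower. SETD1A had 72.4 and 68.1 CPM in STAT3 shRNA, against 81.1 and 91.4 CPM in Ctrl shRNA (-0.30, adjusted p = 0.0368). SETD1B had 74.2 and 64.2 CPM in STAT3 shRNA, against 91.5 and 84.2 CPM in Ctrl shRNA (-0.34, adjusted p = 0.027). KMT2E, a family member with little activity on histones, had 66.1 and 58.6 CPM, against 64.4 and 59.1 CPM, and did not pass (0.02, adjusted p = 0.913). The 7 genes summed to 571 and 501 CPM in STAT3 shRNA and 634 and 615 CPM in Ctrl shRNA.

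None of KMT2A, KMT2B, SETD1A and SETD1B passed with 1 STAT3 shRNA library. Without STAT3 shRNA replicate 1 their log2 fold changes were 0.18, -0.41, -0.34 and -0.45 in that order (adjusted p = 0.473, 0.108, 0.17 and 0.066). Without STAT3 shRNA replicate 2 they were 0.42, -0.23, -0.25 and -0.24 (adjusted p = 0.0624, 0.367, 0.305 and 0.317). SETD1A gave -0.21 without Ctrl shRNA replicate 2 (adjusted p = 0.052). With an offset for GC content per library the log2 fold changes were 0.23 for KMT2A, -0.02 for KMT2B, -0.02 for SETD1A and -0.10 for SETD1B, and none of the 4 passed (adjusted p = 0.0748, 0.879, 0.807 and 0.478). KMT2B and SETD1A have a GC content within 61.7 to 75.2%, where the median log2 fold change of all tested genes was -0.33. For SETD1B, within 58.3 to 61.7%, that median was -0.22. Over the 15 alternatives that test for any change (a further one tested against a fold of 1.5), the adjusted p ran between 0.0122 and 0.473 for KMT2A, 0.00645 and 0.879 for KMT2B, 0.000737 and 0.812 for SETD1A, and 0.00379 and 0.478 for SETD1B. KMT2D passed with each library left out in turn and with the GC offset (-0.55). It did not pass on log2(FPKM + 1) (-0.60, adjusted p = 0.0702) or log2(FPKM + 0.1) (-0.64, 0.0697).

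None of the 4 H3K9 methyltransferases passed. SUV39H1, an enzyme of constitutive heterochromatin, had 90.6 and 91.3 CPM in STAT3 shRNA, against 95.8 and 108 CPM in Ctrl shRNA (log2 fold change -0.16, adjusted p = 0.189). Its paralog SUV39H2 had 31.9 and 32.4 CPM in STAT3 shRNA, against 27.997 and 21.9 CPM in Ctrl shRNA, a log2 fold change of 0.37 that lay just short of the threshold (adjusted p = 0.0534). Per length SUV39H1 exceeded SUV39H2 2.17 and 1.98 times in STAT3 shRNA and 2.41 and 3.52 times in Ctrl shRNA. EHMT1 and EHMT2, which together place H3K9 dimethylation in euchromatin, had log2 fold changes of -0.03 each (95% intervals -0.21 to 0.15 and -0.23 to 0.17). With the GC offset EHMT2 turned to 0.21 and passed (adjusted p = 0.0334).

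The 4 genes of PRC2, the complex that methylates H3K27, split into 2 that were higher and 2 that did not pass. SUZ12, the subunit that holds the complex together, had 153 and 149.8 CPM in STAT3 shRNA, against 102 and 88.3 CPM in Ctrl shRNA. Its log2 fold change was 0.67 ± 0.09 (SE; edgeR, adjusted p = 0.000887), and the gap between the groups was larger than the spread within either. EZH2, the catalytic subunit of dividing cells, had 99.3 and 103 CPM in STAT3 shRNA, against 76.1 and 76.9 CPM in Ctrl shRNA (0.40 ± 0.08, adjusted p = 0.00559). EED, which binds methylated H3K27, had 32.2 and 33.3 CPM in STAT3 shRNA, against 36.1 and 37.1 CPM in Ctrl shRNA (-0.16, adjusted p = 0.215). EZH1, the catalytic subunit that prevails in resting cells, had 26.04 and 25.001 CPM, against 24.5 and 24.9 CPM (0.05, adjusted p = 0.749). Per length EZH2 exceeded EZH1 4.37 and 3.97 times in STAT3 shRNA and 3.21 and 3.65 times in Ctrl shRNA. The call of SUZ12 held with each library left out, whereas EZH2 gave 0.43 without STAT3 shRNA replicate 1 and 0.38 without replicate 2, neither of which passed (adjusted p = 0.0628 and 0.101, and 0.000572 to 0.101 over the 15 alternatives).

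PRC2 genes are known targets of E2F factors in dividing cells, so the same windows were searched on both strands for the E2F-type octamers TTTCCCGC, TTTGGCGC, TTTCGCGC and TTTGCCGC. At least 1 of them was in the windows of 6 of the 59 matched enzymes (EZH1, EZH2, KDM1B, NSD2, SIRT6 and SUZ12), which is 6 of 90 windows (6.67%), against 3.31% of all windows. EZH2 and SUZ12, which both passed in the comparison, are shown with the octamer in capitals, EZH2 from chr7:148884283-148884312, minus strand, and SUZ12 from chr17:31936792-31936851, plus strand.
EZH2: cgatggcgattgggctgccgcgTTTGGCGC
SUZ12: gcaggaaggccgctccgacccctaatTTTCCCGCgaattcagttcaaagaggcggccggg
In EZH2 the octamer began at base 2 from 1 of its 2 listed starts, with that start as base 1. In SUZ12 it began 189 bases before the start. The other 4 genes that hold one did not pass in the comparison, among them EZH1 of PRC2 (log2 fold change 0.05). Thus 2 of the 6 genes with an octamer passed, where 30.2% of all the enzymes did. As for the STAT palindrome, a match is no evidence of binding. The part of E2F factors in the changes of EZH2 and SUZ12 was not tested.

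NSD3 was the 1 of 4 H3K36 methyltransferases that passed. It had 116 and 116 CPM in STAT3 shRNA, against 94.8 and 86.5 CPM in Ctrl shRNA (log2 fold change 0.36, edgeR adjusted p = 0.0116), and the log2 fold change was as large, 0.36, without STAT3 shRNA replicate 1 or 2, where it did not pass (adjusted p = 0.123 and 0.121, and 0.000677 to 0.123 over the 15 alternatives). DDHD2, on the opposite strand, overlaps NSD3 and held 66.7% as many reads, and the use of strand in counting is not given in the sources used here. SETD2, the enzyme of H3K36 trimethylation, had 109 and 109 CPM in STAT3 shRNA, against 98.9 and 87.0 CPM in Ctrl shRNA (0.23, adjusted p = 0.0791). NSD2, the H3K36 enzyme with the highest FPKM, had 123.2 and 114 CPM in STAT3 shRNA, against 141 and 135 CPM in Ctrl shRNA (-0.22, adjusted p = 0.0749), and NSD1 gave -0.02 (0.864). With the GC offset NSD2 passed (-0.32, adjusted p = 0.00742). None of the 3 H4K20 methyltransferases passed. KMT5A, which monomethylates H4K20 during the cell cycle, had 66.6 and 67.8 CPM in STAT3 shRNA, against 67.4 and 60.8 CPM in Ctrl shRNA, with overlapping groups (0.07, adjusted p = 0.598). KMT5B gave -0.01 and KMT5C -0.39 (adjusted p = 0.964 and 0.0896). The 6 further SETD proteins, among them the actin histidine methyltransferase SETD3 and the H3K4 monomethyltransferase SETD7, lay between -0.22 and 0.08, and none passed. The most abundant of them per length was SETD5, with 132 and 127 CPM in STAT3 shRNA, against 126 and 119.7 CPM in Ctrl shRNA (0.08, adjusted p = 0.502). SETD7 gave -0.22 (adjusted p = 0.0573) and passed with the GC offset (-0.35, 0.00502).

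KDM1A changed with the smallest adjusted p among the enzymes. KDM1A (ENSG00000004487.16, chromosome 1, 23019443 to 23083689, plus strand) encodes LSD1, which removes mono- and dimethylation from H3K4 within CoREST complexes. It had 467 and 465.5 CPM in STAT3 shRNA, against 246 and 239 CPM in Ctrl shRNA, a 1.92-fold rise (log2 fold change 0.94 ± 0.08, SE; 95% interval 0.77 to 1.12; edgeR, adjusted p = 7.59e-05). The 2 libraries of each group lay close together and far from those of the other, and the call held under all 16 alternatives (adjusted p up to 0.00553). KDM1B, the related enzyme found in gene bodies, had 27.8 and 25.9 CPM in STAT3 shRNA, against 25.4 and 23.7 CPM in Ctrl shRNA (0.13, adjusted p = 0.373). The ratio of KDM1A to KDM1B per length was 24.4 and 24.9 in STAT3 shRNA and 13.2 and 12.8 in Ctrl shRNA.

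Of the 15 JmjC demethylases 2 were higher, 1 was lower and 12 did not pass. KDM5C, an X-linked H3K4 demethylase, had 264 and 250.2 CPM in STAT3 shRNA, against 343 and 354 CPM in Ctrl shRNA (log2 fold change -0.44 ± 0.08, SE; edgeR, adjusted p = 0.0034). Its groups were well apart, and without STAT3 shRNA replicate 2 the log2 fold change was -0.40 (adjusted p = 0.0816, and 9.52e-06 to 0.0816 over the 15 alternatives). Its relatives KDM5A and KDM5B did not pass, with log2 fold changes of 0.18 and 0.19 (adjusted p = 0.179 and 0.142). Per length KDM5C exceeded KDM5B 2.43 and 2.62 times in STAT3 shRNA and 4.10 and 5.31 times in Ctrl shRNA.

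KDM8, a JmjC protein also called JMJD5, and KDM7A, a demethylase of H3K9 and H3K27, passed at low levels. KDM8 had 5.55 and 5.76 CPM in STAT3 shRNA, against 3.34 and 3.56 CPM in Ctrl shRNA (log2 fold change 0.71 ± 0.21, edgeR adjusted p = 0.0297). KDM7A had 7.69 and 8.21 CPM in STAT3 shRNA, against 5.51 and 5.59 CPM in Ctrl shRNA (0.51 ± 0.18, adjusted p = 0.0499). Groups did not overlap for either gene. With any 1 library left out KDM7A gave 0.47 to 0.56 and did not pass (adjusted p = 0.0614 to 0.284). KDM8 gave 0.74 and 0.69 without STAT3 shRNA replicate 1 or 2 and did not pass (0.157 and 0.188). With DESeq2, on all libraries, the adjusted p was 0.192 for KDM7A and 0.12 for KDM8. Over the 15 alternatives it ran between 0.0345 and 0.533 for KDM7A and 0.0111 and 0.234 for KDM8. The H3K27 demethylases KDM6A and KDM6B gave 0.10 and 0.03, with 95% intervals of -0.15 to 0.36 and -0.28 to 0.35. KDM4D had the highest log2 fold change of those that did not pass, 0.96 on levels of 1.76 and 1.09 CPM in STAT3 shRNA and 0.848 and 0.627 CPM in Ctrl shRNA (adjusted p = 0.138).

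**Figure D3:**
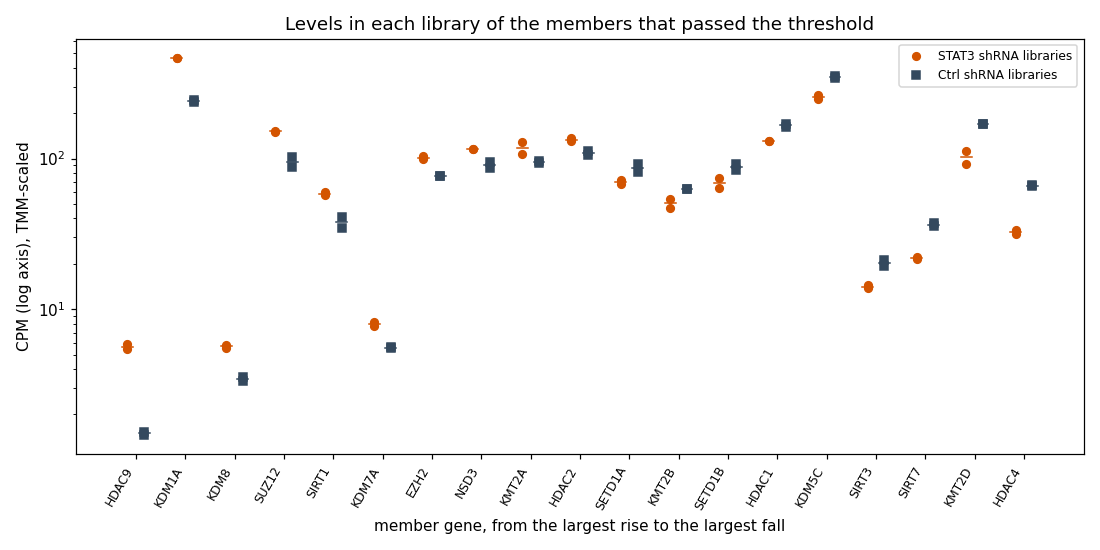
CPM (log axis, TMM-scaled) in each library of the 19 enzymes past the threshold, ordered from the highest log2 fold change to the lowest; circles are STAT3 shRNA, squares Ctrl shRNA, and short lines the mean of 2 libraries. In none of the 19, which were picked by the test on these libraries, do the groups overlap, as in 70.8% of all tested genes. The gap is widest for HDAC9 (5.85 and 5.44 CPM against 1.54 and 1.46 CPM).

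The class I deacetylases HDAC1 and HDAC2, close relatives that share the SIN3, NuRD and CoREST complexes, moved in opposite directions. HDAC1 had 130.3 and 131 CPM in STAT3 shRNA, against 170.3 and 162 CPM in Ctrl shRNA (log2 fold change -0.35, edgeR adjusted p = 0.0095). HDAC2 had 130.25 and 137 CPM in STAT3 shRNA, against 112 and 106 CPM in Ctrl shRNA (0.29, adjusted p = 0.0242). Per length the ratio of HDAC1 to HDAC2 was 0.792 and 0.739 in STAT3 shRNA and 1.09 and 1.06 in Ctrl shRNA, so that HDAC2 had the greater FPKM in both STAT3 shRNA libraries and HDAC1 in both controls. On log2(FPKM + 1), however, HDAC1 gave -0.30 and HDAC2 0.19, and neither passed (limma-trend, adjusted p = 0.056 and 0.162). HDAC1 stayed at -0.35 without STAT3 shRNA replicate 1 or 2, and HDAC2 gave 0.33 and 0.26, but with 1 library in that group neither passed (adjusted p = 0.137 and 0.131 for HDAC1, 0.154 and 0.27 for HDAC2). Over the 15 alternatives the adjusted p ran between 0.00042 and 0.137 for HDAC1 and 0.00432 and 0.292 for HDAC2. With the GC offset HDAC1 gave -0.41 (adjusted p = 0.00141) and HDAC2 0.10 (0.292). HDAC3, the enzyme of NCoR complexes, and HDAC8 did not pass (-0.04 and -0.15, adjusted p = 0.738 and 0.339), although HDAC8 did with the GC offset (-0.34, 0.0488).

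The class IIa enzymes, which shuttle between nucleus and cytoplasm and repress MEF2 targets, held the strongest rise and the strongest fall among the enzymes that passed. HDAC9 (ENSG00000048052.21, chromosome 7, 18086949 to 19002416, plus strand) had 5.85 and 5.44 CPM in STAT3 shRNA, against 1.54 and 1.46 CPM in Ctrl shRNA, which are 156 and 100 reads against 29 and 28 reads. The log2 fold change was 1.91 ± 0.25 (SE), a 3.75-fold rise (edgeR, adjusted p = 0.000686), and it passed under all 16 alternatives (adjusted p up to 0.0386). On the log2(FPKM + 1) scale, which understates changes of low genes, it was 0.91.

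HDAC4 (ENSG00000068024.16, chromosome 2, 239048168 to 239401654, minus strand), whose palindrome printed above lies at a start inside the gene, had 33.7 and 31.6 CPM in STAT3 shRNA, against 66.4 and 65.5 CPM in Ctrl shRNA. Its log2 fold change was -1.01 ± 0.09 (SE; edgeR, adjusted p = 0.000117), 2.02-fold lower, and the libraries within each group nearly coincided. HDAC4 passed under 15 of the 16 alternatives, with adjusted p = 0.0508 on log2(FPKM + 1). HDAC5 and HDAC7 did not pass. HDAC5 had 28.2 and 26.5 CPM in STAT3 shRNA, against 26.8 and 26.3 CPM in Ctrl shRNA (0.04, adjusted p = 0.762; 0.28 and 0.0467 with the GC offset), and HDAC7, the class IIa gene with the highest FPKM, gave -0.20 (adjusted p = 0.091). Classes IIb and IV held no call. The tubulin deacetylase HDAC6 had 76.2 and 69.0 CPM in STAT3 shRNA, against 77.2 and 89.9 CPM in Ctrl shRNA (-0.20, adjusted p = 0.159). The polyamine deacetylase HDAC10 gave -0.27 and HDAC11 -0.62 (adjusted p = 0.115 and 0.0554). HDAC10 is uncertain, since 86.8% of its longest transcript is shared with transcripts listed under MAPK12.

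SIRT1, SIRT3 and SIRT7 passed among the 7 sirtuins. SIRT1, a nuclear deacetylase of histones and transcription factors, had 57.1 and 59.9 CPM in STAT3 shRNA, against 41.0 and 34.4 CPM in Ctrl shRNA (log2 fold change 0.63 ± 0.11, SE; edgeR, adjusted p = 0.00257). SIRT7, the nucleolar sirtuin that deacetylates H3K18, had 21.4 and 22.3 CPM in STAT3 shRNA, against 37.1 and 35.6 CPM in Ctrl shRNA (-0.74 ± 0.10, adjusted p = 0.000818). Their ratio per length, SIRT1 to SIRT7, was 1.07 and 0.938 in STAT3 shRNA and 0.393 and 0.328 in Ctrl shRNA. Both held their calls with each library left out in turn.

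SIRT3, the main mitochondrial deacetylase, had 13.7 and 14.5 CPM in STAT3 shRNA, against 19.4 and 21.1 CPM in Ctrl shRNA (log2 fold change -0.52 ± 0.12, edgeR adjusted p = 0.0115). Without STAT3 shRNA replicate 1 or 2 it gave -0.48 and -0.56 and did not pass (adjusted p = 0.117 and 0.0646, and 0.00281 to 0.117 over the 15 alternatives). PSMD13 overlaps SIRT3 on the opposite strand and held 747% as many reads, and MAFG overlaps SIRT7 on the same strand and held 274% as many. Whether reads of these genes entered the sirtuin counts was not tested. SIRT2, the cytoplasmic tubulin deacetylase with the highest FPKM of the family, gave -0.24 and SIRT6, a chromatin sirtuin of DNA repair, -0.32 (adjusted p = 0.0767 and 0.136). SIRT5, a mitochondrial desuccinylase, gave 0.25 (adjusted p = 0.265). SIRT4 rested on 0.60024 and 0.326 CPM in STAT3 shRNA and 0.954 and 0.784 CPM in Ctrl shRNA (-0.86, adjusted p = 0.245).

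Partners and other modifiers of the same chromatin pathways, taken from lists chosen with earlier results of these data known, gave a like share of calls. Of 120 tested genes 22 were higher and 17 lower (32.5%, against 35.5% of all tested genes), with a median log2 fold change of 0.04. The GC offset kept 22 of these 39 calls, and 12 or 10 were kept with 1 STAT3 shRNA library (replicate 1 or 2 left out). Around PRC2, 3 of 8 accessory subunits were higher and 0 lower. RBBP4, the histone-binding subunit shared with HDAC1 and HDAC2 complexes, had 264 and 277 CPM in STAT3 shRNA, against 212 and 193 CPM in Ctrl shRNA (log2 fold change 0.42, edgeR adjusted p = 0.00563). MTF2, which recruits PRC2 to CpG islands, had 36.02 and 36.7 CPM, against 27.4 and 26.4 CPM (0.44, adjusted p = 0.0086), but with the GC offset it gave 0.24 and did not pass (0.0577). JARID2 gave 0.32 (adjusted p = 0.0497). Of 18 PRC1 subunits, which read the PRC2 mark or ubiquitinate H2A, 3 were higher and 3 lower, among them BMI1 with 52.7 and 54.1 CPM in STAT3 shRNA, against 37.0 and 31.3 CPM in Ctrl shRNA (0.65, adjusted p = 0.0022). CBX8, a chromodomain subunit of PRC1, was lower (-0.62, adjusted p = 0.00481).

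Deacetylase complex partners (32 tested) were 6 higher and 6 lower. HMG20B, a subunit of the LSD1-CoREST complex, had 166 and 163 CPM in STAT3 shRNA, against 295 and 391.9 CPM in Ctrl shRNA (log2 fold change -1.06, edgeR adjusted p = 0.000434), opposite in sign to KDM1A. MIER3 (0.62) and SAP30 of the SIN3 complex (0.53) were higher (adjusted p = 0.00433 and 0.0043). Among 14 histone acetyltransferases 4 were higher and 2 lower: KAT2B, also called PCAF, had 14.3 and 11.47 CPM in STAT3 shRNA, against 6.26 and 6.43 CPM in Ctrl shRNA (1.03, adjusted p = 0.00242), and HAT1, which acetylates new H4, had 46.1 and 50.8 CPM, against 94.6 and 78.7 CPM (-0.84, adjusted p = 0.000696). CREBBP, the acetyltransferase CBP, gave 0.32 (adjusted p = 0.0287). The 12 COMPASS partners of the H3K4 enzymes were 2 higher and 1 lower, with DPY30 at 0.36, PAXIP1 at 0.31 and CXXC1 at -0.41 (adjusted p = 0.0255, 0.0241 and 0.0313). With the GC offset DPY30 gave 0.16 and CXXC1 -0.19, and neither passed (0.185 and 0.14). The 10 other JmjC proteins were 2 higher and 3 lower, with HR, an H3K9 demethylase, at -1.06 (adjusted p = 0.00024), TYW5 at -0.59 (0.0161) and JMJD6 at -0.43 (0.0193).

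Of 11 other lysine methyltransferases 1 was higher (SETDB2, 0.70, adjusted p = 0.00895) and 1 lower (SMYD5, -0.30, adjusted p = 0.0444) by the edgeR test, and SMYD5 gave -0.15 and did not pass with the GC offset (0.146). The 8 arginine methyltransferases held 1 call, PRMT7, with 40.0 and 37.1 CPM in STAT3 shRNA, against 65.7 and 64.8 CPM in Ctrl shRNA (-0.76, adjusted p = 0.000472). Among 8 HP1 and H3K9 methyl readers 2 were higher, CBX5, which encodes HP1 alpha (0.64, adjusted p = 0.00135), and MPHOSPH8 (0.38, adjusted p = 0.0166). MPHOSPH8 gave 0.25 with the GC offset and did not pass (0.0637).

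The sign of the change moved with GC content of the transcript, a property that the choice of genes did not use. The median GC was 41.2% for the 10 enzymes that were higher, 58.2% for the 9 that were lower and 48.6% for the 44 that did not pass, beside 48.65% over all tested genes with a value. Of the 10 higher enzymes 8 lay under that last value (KDM1A and KDM8 lay over it), and of the 9 lower ones 8 lay over it (HDAC1 lay under it). Spearman's rho of log2 fold change with GC was -0.597 across the 63 enzymes and -0.339 across 14540 genes, as a description across genes that share the same 4 libraries. The Ctrl shRNA libraries also differed from each other along GC (rho -0.473 for replicate 1 minus 2 across all tested genes). With a GC offset for each library 13 of the 19 calls were kept, 6 were lost (KMT2A, KMT2B, SETD1A, SETD1B, KDM7A and HDAC2), and 5 were gained (EHMT2, NSD2, SETD7, HDAC5 and HDAC8). SUZ12 then gave 0.48, SIRT1 0.44, EZH2 0.25, KDM1A 0.97, HDAC4 -0.89 and SIRT7 -0.59 on the log2 scale.

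**Figure D4:**
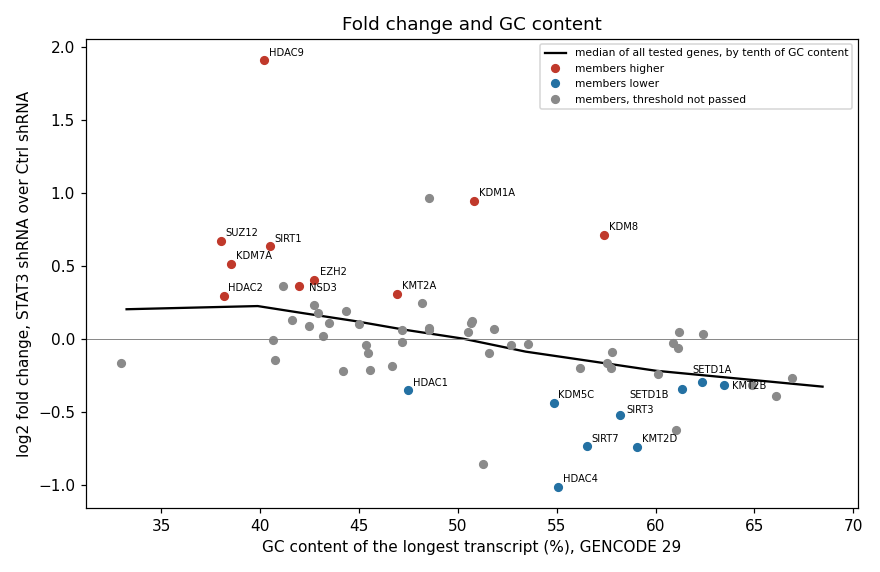
Log2 fold change (STAT3 shRNA over Ctrl shRNA, y axis) against GC content in percent of the longest transcript (x axis); each point is 1 of the 63 enzymes, colored by call, and the line joins medians of all tested genes in bins of GC content. Higher enzymes cluster at low GC (median 41.2%) and lower ones at high GC (median 58.2%), with KDM1A, KDM8 and HDAC1 on the other side.

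Position on the chromosome also moved with the change of some enzymes. Around HDAC4, 15 of the 20 nearest tested genes (10 on each side) were lower and 1 was higher, with a median log2 fold change of -0.86 beside -1.01 for HDAC4. Around SIRT1, 9 of 20 neighbors were higher and 0 lower (median 0.41), and around SIRT7, 10 were lower and 1 higher (median -0.34). SIRT3, near the end of chromosome 11, had 13 tested neighbors, 9 lower and 0 higher (median -0.46). KDM1A differed from its neighborhood, where 4 genes were higher and 4 lower (median 0.18), and KDM5C had the opposite sign to its neighbors (median 0.11). Across the 63 enzymes Spearman's rho between a gene and the median of its neighbors was 0.60, as a description, and 16 of the 19 called enzymes had the sign of their neighbors' median. The same values were not computed over all tested genes, so agreement with neighbors is not shown to be particular to the enzymes. The part of the neighborhood in these changes was not tested.

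**Figure D5:**
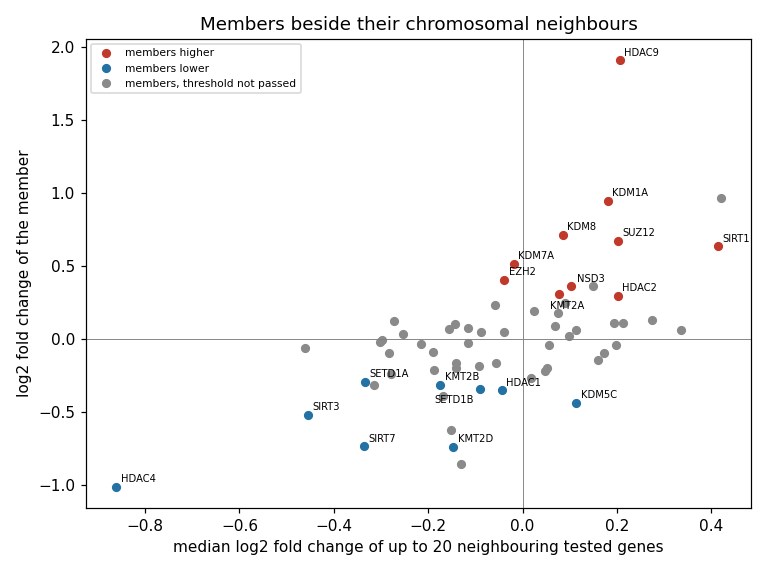
Log2 fold change of each of the 63 enzymes (y axis) against the median log2 fold change of up to 20 neighboring tested genes (x axis), colored by call. HDAC4 lies at the lower left with neighbors at -0.86, SIRT1 at the right with neighbors at 0.41, and KDM1A and HDAC9 lie far above neighbors near 0.2.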

How the data were processed

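RNA was sequenced from 4 libraries, 2 per group. Raw read counts for every gene were deposited by the authors, and so were FPKM for the same genes, per the file headers. The aligner, the counter, the build and annotation, the kit and strand use were not given in the sources available. Sample titles supplied the groups. The columns of the knockdown libraries carry "Si" and a number; the labels leave this unexplained, and it was read as STAT3 shRNA. Enzymes and related lists were chosen with earlier results of these data known. The text names all enzymes past the threshold, the enzyme with the highest FPKM in each role, and in related lists the 3 genes with the smallest p-values among those that passed. For 1 such gene the result is not reported here. Enzymes outside that rule (such as KMT2C, EED and SIRT4) were added after their values were seen, to show their families.

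All genes were tested on counts by edgeR 4.0.16 in R 4.3.3 (TMM factors 0.951 to 1.04, filterByExpr, quasi-likelihood, two-sided, no term besides group), and p-values were Benjamini-Hochberg adjusted over 15199 genes with a threshold of 0.05. Of 26420 Ensembl IDs 25992 were found in GENCODE 29 (GRCh38) without their version, all 63 enzymes among them, which gave positions, neighbors and GC content. Sequences are from RefSeq (GRCh38.p14). Copies were sought at 95% identity over 50% of a transcript. Alternatives were DESeq2 1.42.0, limma-trend 3.58.1 on FPKM (log2, pseudocount 1 or 0.1), RLE and upper-quartile scaling, low-count filters, a block for the replicate number, each library left out, a threshold of 0.01, a test against a fold of 1.5, and GC offsets (lowess per library). The edgeR test was tried on simulated data with 1 dispersion (0.00967) for all genes. There it called 27 of 50 genes changed 1.5-fold, 41 of 50 changed 2-fold and 5 of 14999 unchanged genes. The simulated libraries had no GC trend and the same dispersion in both groups, so these counts do not give the error rate in the real libraries. Within groups the libraries differed beyond sampling noise (chi-square per degree of freedom 4.39 for STAT3 shRNA and 15.0 for Ctrl shRNA). Floors of 3 reads cover counting error only.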

Additional observations from a re-analysis of the deposited data

How the results depend on the processing

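Of the 19 calls among the enzymes, KDM1A and HDAC9 passed under all 16 alternatives, and 7 (KMT2D, SUZ12, KDM1A, HDAC4, HDAC9, SIRT1 and SIRT7) passed with each library left out in turn. The number of enzymes higher in STAT3 shRNA was 10, and 4 to 14 when 1 library was left out, 5 at a threshold of 0.01 and 2 in the test against a fold of 1.5. The number lower was 9, and 3 to 19 when 1 library was left out, with 19 without Ctrl shRNA replicate 1. It was 3 on log2(FPKM + 1), 4 on log2(FPKM + 0.1), 5 at a threshold of 0.01 and 1 against a fold of 1.5. Related genes higher were 22, with 5 to 34 over the left-out libraries, 14 with DESeq2 and 12 on log2(FPKM + 1). Related genes lower were 17, with 4 to 26 over the left-out libraries, 11 with upper-quartile scaling and 6 on log2(FPKM + 1). Over all genes 2552 were higher and 2844 lower. That became 1128 and 1399 without STAT3 shRNA replicate 1, 1147 and 1420 without STAT3 shRNA replicate 2, 1349 and 1186 on log2(FPKM + 1), 1315 and 1179 on log2(FPKM + 0.1), 1265 and 1632 at 0.01, and 527 and 472 against a fold of 1.5. Upper-quartile scaling turned the balance to 2949 higher and 2412 lower.

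Some enzymes that did not pass changed sign: SUV39H1 gave 0.0013 with the GC offset and 0.0022 with GC offset and block, NSD2 0.139 and 0.143 and SETD5 -0.272 and -0.28 on log2(FPKM + 1) and log2(FPKM + 0.1), and KMT5A, at 0.07, gave -0.0099 to 0.1104 when 1 library was left out, with the lower value without Ctrl shRNA replicate 2. The cause was not tested. Same-numbered libraries did not deviate together (correlation -0.0286). With 2 libraries per group this is 1 correlation across genes, which cannot show whether the numbers mark pairs. With the replicate number as a block 10 enzymes were higher and 9 lower, with KDM7A lost and SUV39H2 gained. RLE scaling lost KMT2A and KDM7A, and upper-quartile scaling lost KMT2B and SETD1A. STAT3 passed in all 9 alternatives run for it (-2.82 to -2.32). Depth limits SIRT4, KDM4D and HDAC9 most, whose levels lie near 1 CPM in a group.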

Other observations

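The log2 fold changes on log2(FPKM + 1) and on counts differed by more than 0.3 for 9 enzymes. These include the low genes HDAC9, KDM4D, KDM7A and KDM8, whose changes the pseudocount of 1 shrinks (0.91 against 1.91 for HDAC9). KDM5A, an H3K4 demethylase, had 13.5 and 10.4 FPKM in STAT3 shRNA, against 6.45 and 6.10 FPKM in Ctrl shRNA, while its counts gave 50.9 and 50.4 CPM against 47.1 and 42.5 CPM. The log2 fold change was 0.82 on FPKM (limma-trend on log2(FPKM + 1), adjusted p = 0.0342) and 0.18 on counts. The length implied by counts over FPKM, relative to the median gene of each library, was 1.97 and 2.54 for KDM5A in STAT3 shRNA and 3.64 and 3.51 in Ctrl shRNA. KMT5A gave 0.57 on FPKM and 0.07 on counts, with implied relative lengths of 0.697 and 0.620 in STAT3 shRNA and 0.789 and 1.04 in Ctrl shRNA. SETD5 gave -0.27 on FPKM and 0.08 on counts, with 2.23 and 2.30 in STAT3 shRNA and 1.84 and 1.58 in Ctrl shRNA. How FPKM was computed is not given in the sources used here, and the cause of these differences was not tested.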
